A study of Mus musculus with 7 samples.

Results

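The nuclear genes for the subunits of the oxidative phosphorylation machinery were described in thymocytes sorted around the point where the αβ and γδ T cell lineages part. Members were the features whose symbol began with Ndufa, Ndufb, Ndufc, Ndufs, Ndufv or Ndufab followed by a digit, with Sdha to Sdhd, or with Uqcr, Cox4 to Cox8 or Atp5, without pseudogenes named as such. The rule found 85 of the 32286 features. Of these, 36 were assigned to complex I, 4 to complex II, 8 to complex III, 20 to complex IV and 17 to complex V. Ndufa4 and Ndufa4l2 were counted in complex IV, to which the Ndufa4 protein is known to belong. Of the 85 members, 78 had a mean over the libraries of at least 10 CPM (UMIs of the gene for every 1000000 UMIs counted), the limit for a gene to enter a comparison, as did 7579 features in all. The other 7 were all in complex IV and are described below. The rule itself reads gene names and no measured value.

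Sorted cells were measured with the 10x 3' v3 method, which counts mRNA molecules by unique molecular identifiers (UMIs), in 7 libraries from 7 groups, 1 library per group. Of these, 5 groups came from WT C57BL/6 mice of 6 to 8 weeks, whose thymi from both sexes were pooled and depleted of CD4+ and CD8+ cells with magnetic beads: DN3a, the precursors before selection, DN3b γδ- and DN4 γδ- on the αβ path, and DN3b γδ+ and DN4 γδ+ on the γδ path. CD71 set DN3b γδ- apart from DN3a in the sort, and DN4 γδ- cells were taken as CD71+ as well. The other 2 groups, DN3 γδ- and DN3 γδint (with an intermediate surface level of the γδ receptor), came from C57BL/6 mice of genotype Lat-/-TCRd-H2BEGFP, called Lat-KO here, whose age is not given in the sources used here. They lack the adaptor LAT, which relays T cell receptor signals, and carry a green fluorescent reporter in the Trdc locus. The WT labels do not name this reporter, so that the effects of the knockout and of the reporter cannot be told apart. Lat-KO cells were also sorted from total thymocytes and WT cells from depleted ones, and the effect of this step cannot be told apart either. Libraries of WT mice are named below by their stage alone. Every library was spiked with 500 splenic B cells. Since each group is 1 library, no difference below has a replicate check, no p value was computed, and the intervals given are exact ones that cover counting error only.

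Oxidative phosphorylation takes place in the inner mitochondrial membrane. Complex I (NADH dehydrogenase) and complex II (succinate dehydrogenase) pass electrons to ubiquinone, complex III passes them to cytochrome c, complex IV (cytochrome c oxidase) gives them to oxygen, and complex V (ATP synthase) uses the proton gradient so made to form ATP. Most subunits are encoded in the nucleus, and a few of complexes I, III, IV and V in mitochondrial DNA, so that both genomes must be expressed together. Thymocytes divide rapidly after passing β- or γδ-selection, a phase in which cells are known to raise both glycolysis and mitochondrial respiration.

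Since the members are described as a group, the RefSeq promoters of GRCm38.p6 (250 bases before to 50 bases after each start) were searched for the letters of 3 motifs known from respiratory genes, on both strands: CCGGAAG, the core bound by ETS factors such as GABPA, CGCANGCG, the core of NRF1, and AAGATGGCG, bound by YY1. The motifs were searched one by one and could overlap. Promoters were matched for 69 of the 85 members, giving 74 promoters, as some genes have several starts. CGCANGCG was present in 29 of them (39.2%), against 8.21% of all 32851 promoters and 19.9% of those of the other genes that entered the comparisons. CCGGAAG was in 17 (23.0%, against 8.86% and 21.6%), and AAGATGGCG in 7 (9.46%, against 1.40% and 3.74%). Promoters of 1 gene can overlap and hold the same match. Counted by gene, CGCANGCG was in 26 of the 69 members and in 1403 of 6037 other genes that entered the comparisons. In the same way CCGGAAG was in 17 and 1524, and so near the share of the other genes, and AAGATGGCG in 7 and 276. A match is a string of letters and no measured binding site. The promoters of 4 members are printed, with matches in capitals: Sdhb (chr4:140961021-140961320, plus strand) and Uqcrc1 (chr9:108936398-108936697, plus strand), the members of complexes II and III that were highest in DN3b γδ- relative to DN3a, Atp5j (chr16:84834927-84835226, minus strand), whose promoter at this start held all 3 motifs while that at its other start held none, and Cox6b2 (chr7:4753045-4753344, minus strand), whose level went the other way and whose promoter held none of them.
Sdhb: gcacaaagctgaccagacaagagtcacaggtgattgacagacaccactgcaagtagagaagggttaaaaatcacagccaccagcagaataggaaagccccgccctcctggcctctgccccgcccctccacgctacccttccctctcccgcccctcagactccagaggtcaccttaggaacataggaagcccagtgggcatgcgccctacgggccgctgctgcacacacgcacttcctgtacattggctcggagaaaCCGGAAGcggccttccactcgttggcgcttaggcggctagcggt
Uqcrc1: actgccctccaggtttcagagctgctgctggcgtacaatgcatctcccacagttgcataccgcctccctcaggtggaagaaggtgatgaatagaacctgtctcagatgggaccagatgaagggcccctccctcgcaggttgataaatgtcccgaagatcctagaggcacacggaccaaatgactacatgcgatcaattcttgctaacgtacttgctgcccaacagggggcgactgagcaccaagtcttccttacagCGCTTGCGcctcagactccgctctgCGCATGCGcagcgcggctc
Atp5j: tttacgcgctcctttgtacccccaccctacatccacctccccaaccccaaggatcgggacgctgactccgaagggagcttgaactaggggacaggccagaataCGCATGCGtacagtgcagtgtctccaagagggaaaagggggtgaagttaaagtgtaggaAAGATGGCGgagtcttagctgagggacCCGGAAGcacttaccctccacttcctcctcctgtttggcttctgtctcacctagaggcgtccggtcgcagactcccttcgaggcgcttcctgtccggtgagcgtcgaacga
Cox6b2: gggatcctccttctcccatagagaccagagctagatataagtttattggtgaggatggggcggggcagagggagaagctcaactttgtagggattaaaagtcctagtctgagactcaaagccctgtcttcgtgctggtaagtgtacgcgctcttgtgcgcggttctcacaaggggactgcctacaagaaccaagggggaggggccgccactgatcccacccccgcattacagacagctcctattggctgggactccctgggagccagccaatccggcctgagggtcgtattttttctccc
The single match in Sdhb is CCGGAAG, and both matches in Uqcrc1 are CGCANGCG, close to the start. Of the 74 promoters, 43 held at least 1 of the motifs (58.1%). Ndufv1 and Cox5a, the highest of complexes I and IV in DN3b γδ-, held none, and Atp5d, the highest of complex V, held CGCANGCG at 1 start. Ndufs4, Sdhd, Uqcrh and Atp5md, the lowest of complexes I, II, III and V there, each held at least 1. Whether the motifs go with the ratios was not tested.

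After removal of barcodes with under 200 genes or over 15% mitochondrial UMIs, 5274 to 18515 thymocyte barcodes per library had at most 1 UMI of the B cell genes Cd79a, Cd79b and Ms4a1, and 164 to 429 had at least 5 and were taken as spiked B cells. Median UMIs per thymocyte barcode were 7275 in DN3a, 16948 and 18506 in DN3b and DN4 γδ-, 15392 and 6418 in DN3b and DN4 γδ+, 6938 in Lat-KO γδ- and 5738 in Lat-KO γδint. Summed UMIs of thymocytes were 37820685 to 338698944 per library, and every member that entered the comparisons had at least 955 UMIs in each. Libraries shared 18 to 93 cell barcodes by pair. The 10 T cell markers summed to 3702 to 11215 CPM, myeloid markers to at most 51.4, erythroid ones to at most 169.8 and NK ones to at most 17.2 CPM. Lat was at 357 to 648 CPM in the WT libraries and at 4.83 and 0.899 in the Lat-KO ones.

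Nuclear subunit mRNAs were more abundant in the 3 WT groups that had just passed selection than in DN3a, were near the DN3a level in DN4 γδ+ and Lat-KO γδ-, and were lowest in Lat-KO γδint. Summed over all members, thymocytes held 24215 CPM in DN3a, 33252 and 35632 in DN3b and DN4 γδ-, 33487 and 26497 in DN3b and DN4 γδ+, 22187 in Lat-KO γδ- and 15935 in Lat-KO γδint. The level was thus highest in DN4 γδ-, with DN3b γδ+ and DN3b γδ- next to each other below it. As a median log2 CPM ratio to DN3a over the 78 members, the values were 0.41 in DN3b γδ- (all genes in the comparison -0.057), 0.47 in DN3b γδ+ (all genes -0.052) and 0.49 in DN4 γδ- (all genes -0.17). The medians were 0.11 in DN4 γδ+ (all genes -0.0075), -0.10 in Lat-KO γδ- (all genes 0.22) and -1.09 in Lat-KO γδint (all genes 0.47). All 6 comparisons share the DN3a library. CPM are shares of the RNA counted, not amounts per cell. Much of this was shared by the spiked B cells of the same libraries, which are described further below. With the ratio of each gene in B barcodes with few T cell UMIs taken off, the medians of DN3b γδ-, DN4 γδ-, DN3b γδ+ and Lat-KO γδint became 0.20, 0.046, 0.042 and 0.085, and with the rule's B barcodes those of the 3 WT groups turned to -0.27, -0.20 and -0.24.

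A gene was called where its CPM differed by at least 1.5-fold. In DN3b γδ-, 29 of 78 members were called higher, against 21.1% of all genes, and 1 lower, against 26.8%. In DN4 γδ-, 35 were called higher (all genes 16.9%) and 2 lower (all genes 30.6%). In DN3b γδ+, 27 were called higher (all genes 20.8%) and 2 lower (all genes 24.5%). At this limit of 1.5-fold, members were thus called higher more often than genes at large and lower far less often in these 3 groups. In DN4 γδ+, 4 were called higher (all genes 15%) and 1 lower (all genes 14.5%), so both counts lay under the background. In Lat-KO γδ-, 1 was called higher (all genes 15.7%) and 5 lower (all genes 2.53%). In Lat-KO γδint, 50 were called lower (all genes 7.22%) and 18 higher (all genes 41.7%). Under TMM scaling, which adds 0.36, 0.36 and 0.32 to every log2 ratio of DN3b γδ-, DN4 γδ- and DN3b γδ+, the members called higher numbered 61, 68 and 53 (all genes under TMM 36.1%, 30.7% and 34.2%) and those called lower 1, 1 and 2 (all genes 15.7%, 18.8% and 15.1%). In Lat-KO γδint, where it adds -0.42, 6 were higher (all genes 13.8%) and 54 lower (all genes 14.1%). The 4 members called higher in DN4 γδ+ were Uqcrq, Cox7a2, Cox8a and Ndufa4, and the single one called lower was Cox6b2. With a limit of 2-fold, 10 members were called higher in DN3b γδ-, 8 in DN4 γδ- and 2 in DN3b γδ+. The shares of all genes were 10.1%, 7.59% and 10.1%, so the first 2 counts were near the background and that of DN3b γδ+ lay under it. Called lower at 2-fold were 1, 1 and 2 (all genes 14.3%, 17.2% and 13.2%).

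**Figure D1:**
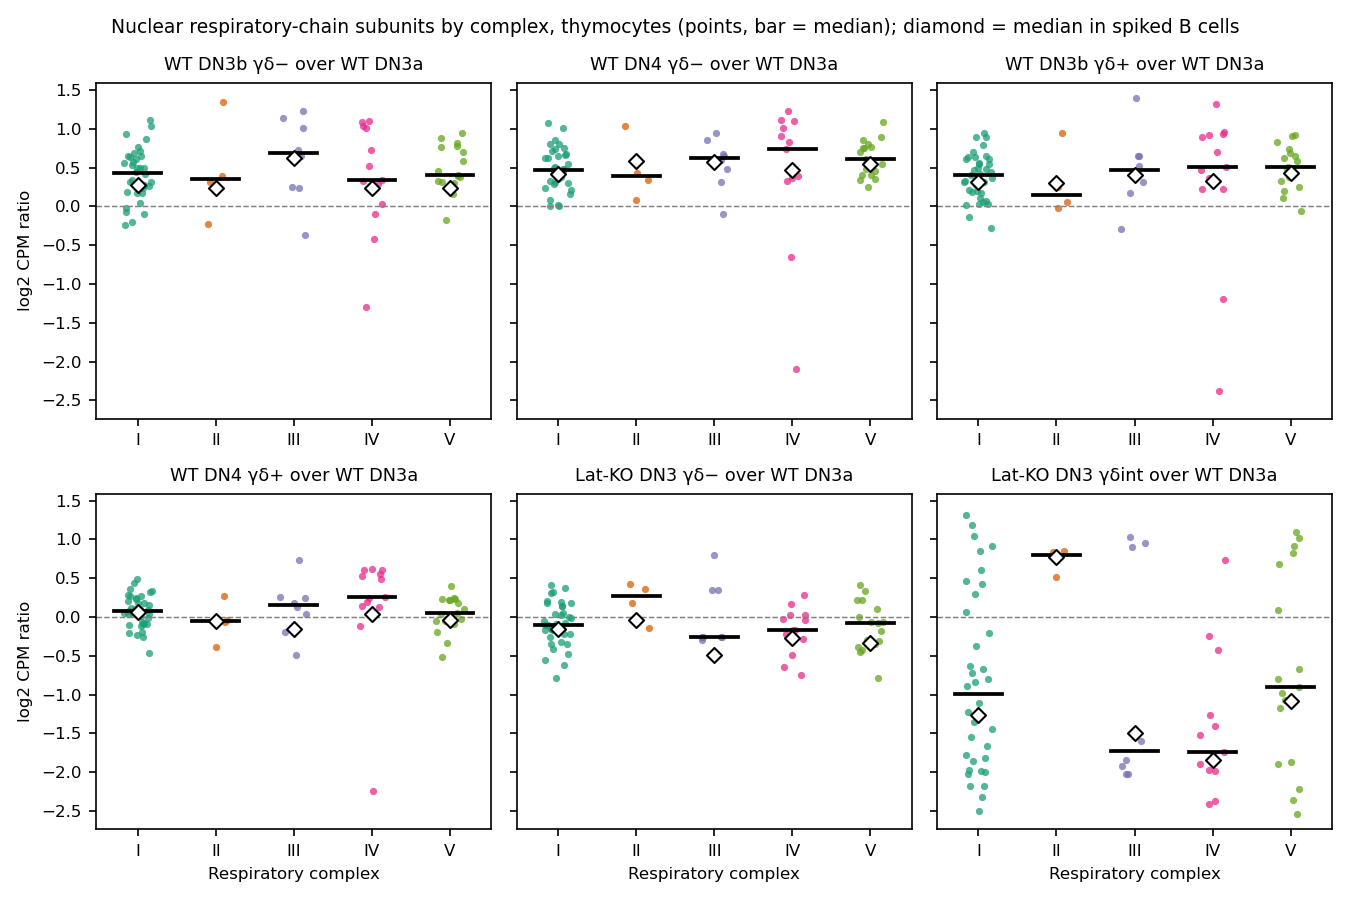
log2 CPM ratio of each of the 78 members to DN3a (y axis) by complex (x axis), 1 panel per library; bars are medians over thymocytes and diamonds medians of the same genes in spiked B cells with fewer than 10 T cell marker UMIs. Most members lie above 0 in DN3b γδ-, DN4 γδ- and DN3b γδ+, and the diamonds follow the bars to about -1.84 for complex IV in Lat-KO γδint.

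Complex I had all 36 of its members in the comparisons, with medians of 0.43, 0.46 and 0.41 in DN3b γδ-, DN4 γδ- and DN3b γδ+. Of the 36, 11, 13 and 10 were called higher (all genes 21.1%, 16.9% and 20.8%) and none lower (all genes 26.8%, 30.6% and 24.5%). Ndufv1, the flavoprotein that takes electrons from NADH (mm10 chr19:4007384-4012806, minus strand), was at 61.2 CPM in DN3a, 133 and 111 in DN3b and DN4 γδ-, 118 and 78.8 in DN3b and DN4 γδ+, 81.2 in Lat-KO γδ- and 152 in Lat-KO γδint. Its log2 ratio to DN3a was 1.12 (95% interval 1.07 to 1.17) in DN3b γδ-, the highest of complex I there, and all other libraries also lay above DN3a. The catalytic core of the NADH-oxidising arm (Ndufv1, Ndufv2 and Ndufs1) had a median of 0.50 in DN3b γδ-, close to that of the complex as a whole.

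Within complex I, Ndufs7, an iron-sulphur subunit, was at 138 CPM in DN3a, 264 and 196 in DN3b and DN4 γδ-, 191 and 117 in DN3b and DN4 γδ+, 172 in Lat-KO γδ- and 184 in Lat-KO γδint. Ndufab1, the mitochondrial acyl carrier protein, which also serves fatty acid synthesis, was at 262 CPM in DN3a, 399 and 531 in DN3b and DN4 γδ-, 489.6 and 229.5 in DN3b and DN4 γδ+, 206 in Lat-KO γδ- and 147 in Lat-KO γδint, so that it was higher in DN4 γδ- and lower in DN4 γδ+ than in DN3a. Ndufs4, an accessory subunit needed for a stable complex, was the lowest of complex I in DN3b γδ- at -0.24 (95% interval -0.27 to -0.20), and Ndufa6 was the lowest in DN3b γδ+ at -0.28 (95% interval -0.31 to -0.25). Neither reached the 1.5-fold limit, and under TMM scaling both ratios turn positive. Ndufb8, an accessory subunit of the membrane arm, was at 174 CPM in DN3a, 358 and 365 in DN3b and DN4 γδ-, 323 and 217 in DN3b and DN4 γδ+, 192 in Lat-KO γδ- and 151 in Lat-KO γδint. Ndufa1, a small membrane subunit, was at 168 CPM in DN3a, 159.8 and 210.4 in DN3b and DN4 γδ-, 217 and 204 in DN3b and DN4 γδ+, 97.4 in Lat-KO γδ- and 29.7 in Lat-KO γδint, and so was lowest in both Lat-KO groups.

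Complex II, which is also an enzyme of the citric acid cycle and is encoded by nuclear genes alone, was uneven. Sdhb, its iron-sulphur subunit (mm10 chr4:140961203-140979193, plus strand), was at 121 CPM in DN3a, 305 and 247 in DN3b and DN4 γδ-, 233 and 146 in DN3b and DN4 γδ+, 137 in Lat-KO γδ- and 215 in Lat-KO γδint, with a log2 ratio of 1.34 (95% interval 1.30 to 1.37) in DN3b γδ-. This was the highest log2 ratio of any member in that comparison. Sdha, the flavoprotein, was at 97.9 CPM in DN3a, 122 and 103 in DN3b and DN4 γδ-, 102 and 93.3 in DN3b and DN4 γδ+, 131 in Lat-KO γδ- and 177 in Lat-KO γδint. Sdhc and Sdhd form the membrane anchor. Sdhc had log2 ratios of 0.39, 0.43 and 0.25 in DN3b γδ-, DN4 γδ- and DN3b γδ+, and Sdhd -0.23, 0.34 and -0.021. Under TMM scaling both negative ratios of Sdhd turn positive. Of the 4 subunits, Sdhb was the only one called in these 3 groups without TMM scaling. With it, Sdhc in DN3b and DN4 γδ-, Sdha in DN3b γδ- and Sdhd in DN4 γδ- pass the 1.5-fold limit too.

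Complex III had medians of 0.68, 0.62 and 0.47 in the same groups. Uqcrc1, a core protein of the complex (mm10 chr9:108936633-108949623, plus strand), was at 80.8 CPM in DN3a, 189.5 and 127 in DN3b and DN4 γδ-, 127 and 91.5 in DN3b and DN4 γδ+, 140.0 in Lat-KO γδ- and 157 in Lat-KO γδint. It was the only member called higher in Lat-KO γδ-, at a log2 ratio of 0.79 (95% interval 0.74 to 0.85). Uqcrq, a small subunit that sits close to cytochrome b, was at 339.5 CPM in DN3a, 749 and 616 in DN3b and DN4 γδ-, 891 and 563 in DN3b and DN4 γδ+, 277 in Lat-KO γδ- and 112 in Lat-KO γδint, the highest ratio of the complex in DN3b γδ+ (1.39). Uqcrh, the hinge subunit, stood apart at 815 CPM in DN3a, 632 and 759 in DN3b and DN4 γδ-, 664 and 977 in DN3b and DN4 γδ+, 679 in Lat-KO γδ- and 201 in Lat-KO γδint. It was the lowest of its complex in DN3b γδ- and DN3b γδ+, with log2 ratios of -0.37 and -0.30, and lay above DN3a in DN4 γδ+ alone. Under TMM scaling the ratio in DN3b γδ+ turns positive and that in DN3b γδ- lies close to 0. Uqcr10, another small subunit, was at 295 CPM in DN3a, 594 and 569 in DN3b and DN4 γδ-, 461 and 323 in DN3b and DN4 γδ+, 246 in Lat-KO γδ- and 82.3 in Lat-KO γδint. Uqcrfs1, the Rieske iron-sulphur protein, had log2 ratios of 0.65, 0.68 and 0.43, and the core protein Uqcrc2 0.25, 0.32 and 0.31.

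Complex IV had the widest spread, with log2 ratios of -2.38 to 1.32 in DN3b γδ+ and medians of 0.34, 0.74 and 0.50 in DN3b γδ-, DN4 γδ- and DN3b γδ+. Cox5a, which is bound early to the catalytic core, was at 376 CPM in DN3a, 803 and 884 in DN3b and DN4 γδ-, 938 and 543 in DN3b and DN4 γδ+, 384 in Lat-KO γδ- and 316 in Lat-KO γδint, with a log2 ratio of 1.32 (95% interval 1.30 to 1.34) in DN3b γδ+. Cox8a was at 573 CPM in DN3a, 1175 and 1071 in DN3b and DN4 γδ-, 1064 and 869 in DN3b and DN4 γδ+, 564 in Lat-KO γδ- and 199 in Lat-KO γδint. Cox6a1, Cox7a2 and Cox8a, the forms of their subunits found in most tissues, had log2 ratios of 1.09, 1.01 and 1.04 in DN3b γδ-, close to each other, while the other common forms Cox4i1 had 0.34 and Cox6b1 0.29. Cox7a2 was at 340.0 CPM in DN3a, 687 and 733 in DN3b and DN4 γδ-, 647 and 524 in DN3b and DN4 γδ+, 302 in Lat-KO γδ- and 102 in Lat-KO γδint. Among the WT libraries it was thus lowest in DN3a. Ndufa4 was at 445 CPM in DN3a, 557 and 894 in DN3b and DN4 γδ-, 863 and 677 in DN3b and DN4 γδ+, 366 in Lat-KO γδ- and 113 in Lat-KO γδint, so that DN3b γδ- was set apart from DN4 γδ- and DN3b γδ+ for this gene.

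Members called against the direction of their group were few in these 3 WT groups, and all were in complex IV. Cox6b2, a form of Cox6b1 known mainly from testis (mm10 chr7:4751792-4753094, minus strand), was at 67.2 CPM in DN3a, 27.3 and 15.7 in DN3b and DN4 γδ-, 12.9 and 14.2 in DN3b and DN4 γδ+, 59.7 in Lat-KO γδ- and 25.3 in Lat-KO γδint. Its level was high in DN3a and Lat-KO γδ- and low in all others, and its log2 ratio to DN3a was -2.38 (95% interval -2.46 to -2.31) in DN3b γδ+. In spiked B cells with few T cell UMIs, Cox6b2 had 1 to 5 UMIs per library. Cox7a2l, which resembles Cox7a2 but is known as a factor that joins complexes III and IV into supercomplexes (mm10 chr17:83501918-83517330, minus strand), was at 507 CPM in DN3a, 377 and 323 in DN3b and DN4 γδ-, 221 and 713 in DN3b and DN4 γδ+, 615 in Lat-KO γδ- and 845 in Lat-KO γδint. It was called lower in DN4 γδ- (-0.65) and DN3b γδ+ (-1.20) and was 0.49 in DN4 γδ+. Under TMM scaling the call in DN3b γδ+ was kept and that in DN4 γδ- was not. In spiked B cells the same gene had -0.22, -0.46 and 0.066. Cox7a2l thus had opposite signs in DN3b γδ+ and DN4 γδ+, with 1.69 (95% interval 1.67 to 1.71) between these groups.

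**Figure D2:**
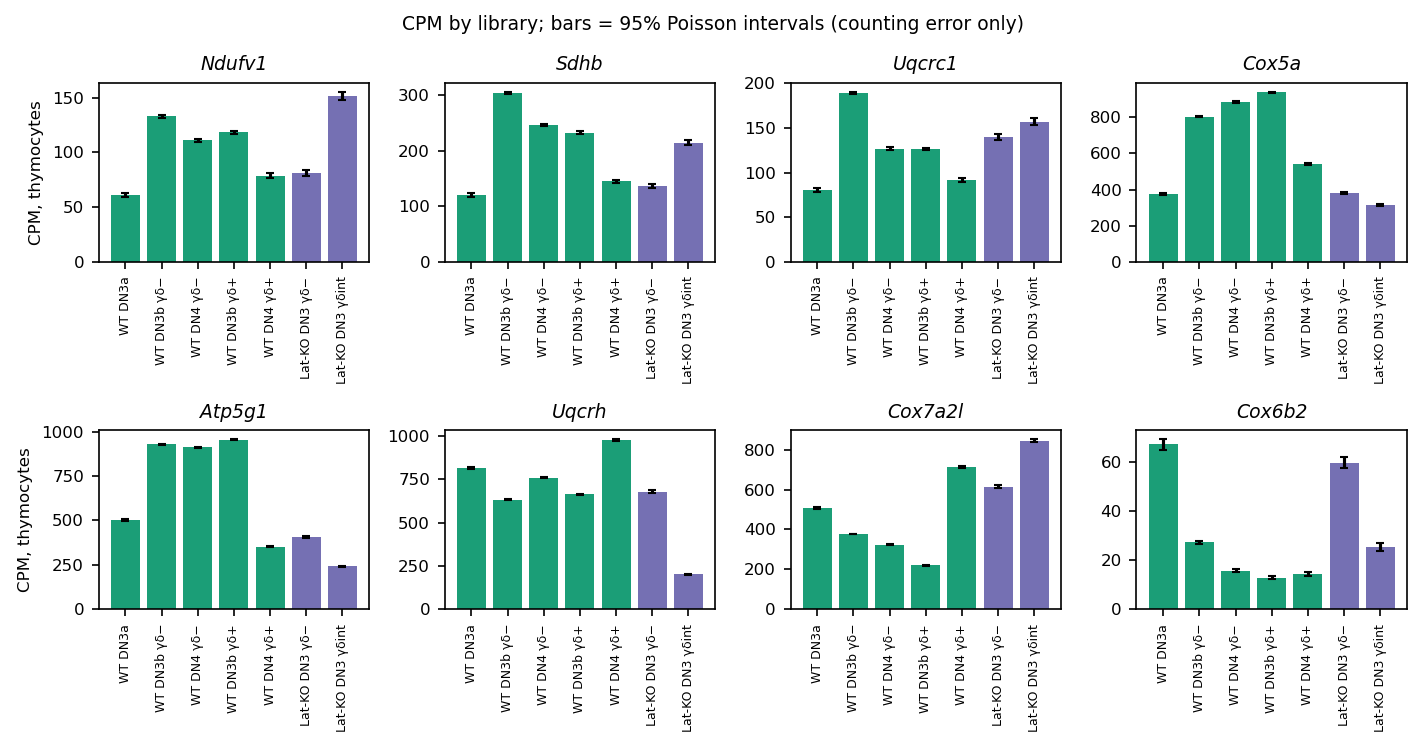
CPM (y axis) of 8 members in thymocytes of the 7 libraries (x axis), WT in green and Lat-KO in purple, with 95% Poisson intervals as error bars. Ndufv1, Sdhb, Uqcrc1 and Cox5a were higher in DN3b γδ-, DN4 γδ- and DN3b γδ+ than in DN3a; Cox7a2l was lowest in DN3b γδ+, and Cox6b2 was high in DN3a and Lat-KO γδ-.

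The 7 members under the limit were tissue forms of complex IV subunits. Cox7a1, the heart and muscle form of Cox7a2, had 3.46 CPM in DN3a, 7.08 and 7.09 in DN3b and DN4 γδ- and 3.50 in DN3b γδ+, and 1.14 to 2.79 CPM in the rest. Cox6a2, the muscle form of Cox6a1, was highest in DN3a at 3.07 CPM, and Cox4i2 had 2 to 101 UMIs per library. Cox8b had 8 UMIs over all libraries, Cox8c 3 and Ndufa4l2 14. Cox7b2 had none in any library, which at 3 UMIs allows up to 0.0793 CPM in the shallowest.

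Complex V had medians of 0.40, 0.61 and 0.51 in DN3b γδ-, DN4 γδ- and DN3b γδ+, with 16, 17 and 16 of 17 members above DN3a. Atp5b, the catalytic β subunit of the head that forms ATP, was at 648 CPM in DN3a, 1144 and 1133 in DN3b and DN4 γδ-, 1000 and 609.8 in DN3b and DN4 γδ+, 756 in Lat-KO γδ- and 1385 in Lat-KO γδint. Atp5d, of the central stalk of the head, had the highest log2 ratio of the complex in DN3b γδ- at 0.94 (95% interval 0.92 to 0.96). Atp5md, a small membrane subunit, was the lowest there at -0.18, with 415 CPM in DN3a, 366 and 493 in DN3b and DN4 γδ-, 399.7 and 329 in DN3b and DN4 γδ+, 240.4 in Lat-KO γδ- and 71.5 in Lat-KO γδint. Its ratio in DN3b γδ- turns positive under TMM scaling. The rotating c ring is built from 1 protein that Atp5g1, Atp5g2 and Atp5g3 each encode behind different import signals. Atp5g1 was at 503 CPM in DN3a, 929 and 911 in DN3b and DN4 γδ-, 956 and 352 in DN3b and DN4 γδ+, 404 in Lat-KO γδ- and 241 in Lat-KO γδint. Atp5g2 was at 533 CPM in DN3a, 866 and 866 in DN3b and DN4 γδ-, 795 and 546 in DN3b and DN4 γδ+, 619 in Lat-KO γδ- and 336 in Lat-KO γδint, and Atp5g3 at 348 CPM in DN3a, 430.1 and 585 in DN3b and DN4 γδ-, 616 and 373 in DN3b and DN4 γδ+, 266 in Lat-KO γδ- and 201 in Lat-KO γδint. Atp5g1 was above DN3a in the 3 groups just after selection and below it in DN4 γδ+ and both Lat-KO groups, while Atp5g2 and Atp5g3 stayed within 0.037 and 0.099 of DN3a in DN4 γδ+.

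Both groups at the DN3b stage had like levels. The median log2 ratio of DN3b γδ+ over DN3b γδ- was -0.0095, with 37 members higher and 41 lower, and -0.035 over all genes. From DN3b to DN4, the γδ- path showed a median of 0.044 (51 higher, 27 lower; all genes -0.12). On the γδ+ path the median was -0.34, with 10 higher and 68 lower (all genes 0.052). In the spiked B cells of the same libraries the median was -0.33 with few T cell UMIs and -0.52 by the rule, and with these taken off the thymocyte median became -0.0090 and 0.22. The median of the γδ- path became -0.16 and 0.070 in the same way. By complex the median of the γδ+ path was -0.34 for I, -0.32 for II, -0.49 for III, -0.31 for IV and -0.39 for V. Atp5g1 had the lowest ratio of all, at -1.44 (95% interval -1.46 to -1.42), followed within complex I by Ndufab1 at -1.09 (95% interval -1.12 to -1.07). Ndufv3 (0.43) and Uqcrh (0.56) were the highest of complexes I and III. The difference between both paths was not tested, as each is a ratio of 2 libraries.

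The groups differed strongly in how many of their cells were dividing, so the members were also compared within libraries. Barcodes of at least 4000 UMIs were thinned to 4000, which left out 343 to 1769 thymocyte barcodes per library, and those with at most 3 UMIs of 40 S and G2M phase genes were called low-cycle, those with at least 10 high-cycle. High-cycle barcodes made up 7.37% in DN3a, 95.9% and 93.6% in DN3b and DN4 γδ-, 92.1% and 19.7% in DN3b and DN4 γδ+, 9.57% in Lat-KO γδ- and 42.6% in Lat-KO γδint. In DN3a the members took a median of 2.33% of UMIs in low-cycle and 2.88% in high-cycle barcodes. In DN4 γδ+ these were 2.27% and 3.02%, in Lat-KO γδ- 2.12% and 2.48%, and in Lat-KO γδint 1.5% and 1.62%. In DN3b γδ-, DN4 γδ- and DN3b γδ+, low-cycle barcodes had 2.75%, 2.77% and 2.85% and high-cycle ones 3.33%, 3.58% and 3.35%. The share was higher in high-cycle barcodes in all 7 libraries. Near the limits lay 136 to 2143 barcodes per library for low-cycle and 130 to 403 for high-cycle, within 1 UMI.

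**Figure D3:**
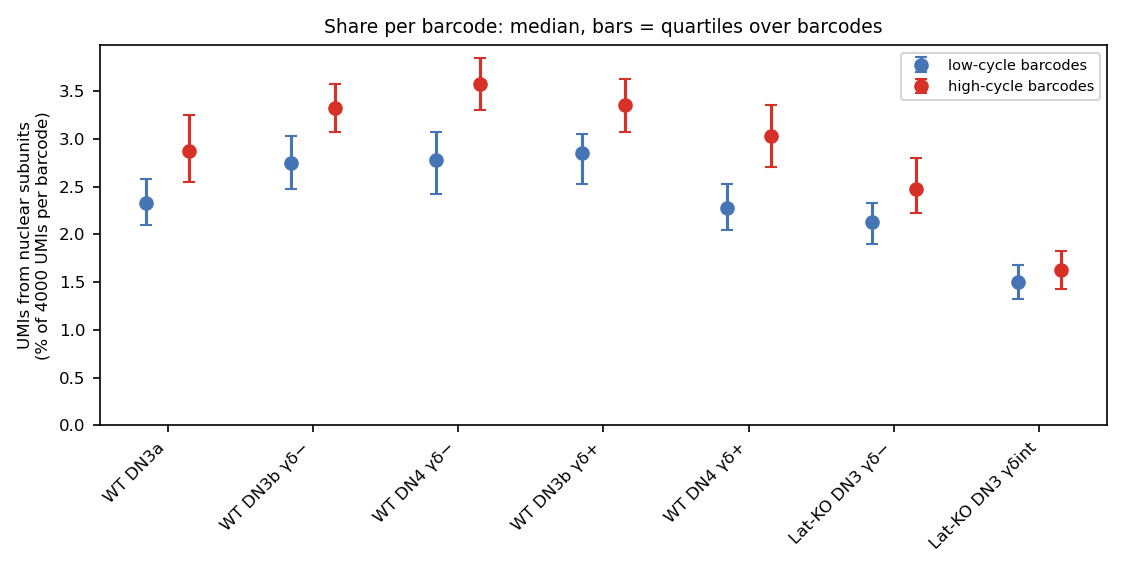
Share of UMIs from nuclear subunits per thymocyte barcode (y axis, percent of 4000 UMIs) in low-cycle (blue) and high-cycle (red) barcodes of each library (x axis); points are medians and bars quartiles over barcodes. The share was higher in high-cycle barcodes in every library, from 1.5% against 1.62% in Lat-KO γδint to 2.77% against 3.58% in DN4 γδ-.

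Gene by gene, the median log2 ratio of high-cycle over low-cycle barcodes was 0.28 in DN3a (63 of 78 members higher), 0.47 in DN4 γδ+ (72 higher) and 0.22 in Lat-KO γδ- (69 higher). Over all genes it was -0.066, -0.029 and -0.086. Compared at like cycle state, the differences from DN3a were smaller than over all barcodes in DN3b γδ-, DN4 γδ- and DN3b γδ+. Among low-cycle barcodes the median was 0.28 and 0.26 in DN3b and DN4 γδ- and 0.27 in DN3b γδ+, though these classes held 145, 93 and 93 barcodes. Among high-cycle barcodes it was 0.22, 0.28 and 0.19, with 476 barcodes in DN3a. In DN4 γδ+ the median was -0.069 among low-cycle and 0.11 among high-cycle barcodes.

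The spiked B cells are the same kind of cell in every library and so were used to see how far a library as such moves the members. By the rule of at least 5 B cell UMIs, the median log2 ratio to DN3a in B barcodes was 0.75 and 0.74 in DN3b and DN4 γδ- and 0.66 in DN3b γδ+, larger than in the thymocytes themselves. Many of these barcodes held thymocyte RNA too. Of those with 4000 UMIs, 77.0%, 62.9% and 55.4% were high-cycle, against at most 20% in the other 4 libraries. B barcodes with fewer than 10 UMIs of the T cell markers, 135 to 292 per library, were therefore used as a second set.

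In these B barcodes the members summed to 17551 CPM in the DN3a library, 20514 and 24189 in DN3b and DN4 γδ-, 21958 and 17746 in DN3b and DN4 γδ+, 14978 in Lat-KO γδ- and 10772 in Lat-KO γδint. In every library this was below the thymocyte level, and DN4 γδ- was highest and Lat-KO γδint lowest in both kinds of cell. The median log2 ratio to DN3a was 0.28 and 0.49 in DN3b and DN4 γδ-, 0.34 and 0.00056 in DN3b and DN4 γδ+, -0.23 in Lat-KO γδ- and -1.27 in Lat-KO γδint. With the B ratio of the same gene taken off, the thymocyte medians of DN4 γδ+ and Lat-KO γδ- became 0.10 and 0.14, beside those of the other 4 groups given above, over 76 or 77 members with at least 10 UMIs in the B barcodes of both libraries. In DN3b γδ-, 56 of 77 members were still above their B ratio, and in DN4 γδ- 39 of 77.

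The second set may not have been free of thymocyte RNA either. T cell markers summed to 7.10% of their thymocyte level in the DN3a library, 19.7% and 24.9% in DN3b and DN4 γδ-, 26% and 10.5% in DN3b and DN4 γδ+, 5.62% in Lat-KO γδ- and 10.3% in Lat-KO γδint. In CPM, the markers in these B barcodes were at 636 in the DN3a library and at 783, 922 and 1082 in DN3b γδ-, DN4 γδ- and DN3b γδ+. Thymocytes of the same libraries held 8954, 3971, 3702 and 4158, so the shares also differ through the thymocyte level. The markers include Cd2, and whether the B cells express any of them was not tested. The part of any thymocyte RNA in the B ratios was not tested either. Whether the members differed from DN3a beyond the shift of their library was not tested. Members whose thymocyte ratio in DN3b γδ- lay above the B ratio include Cox6a1 (1.09 against 0.10), Cox5a (1.10 against 0.35), Cox8a (1.04 against 0.34), Atp5g2 (0.70 against 0.068) and Sdhb (1.34 against 0.81). Uqcrfs1 (0.65 against 0.69) and Sdha (0.32 against 0.36) did not exceed it. These examples are from the named members and were picked after their values were seen. The B ratios of single genes, here and elsewhere, rest on few UMIs and are given without intervals. All of complex II had 135 UMIs in these B barcodes of the DN3a library and 258 in those of DN3b γδ-. The values of Sdhb and Sdha thus carry much counting error.

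**Figure D4:**
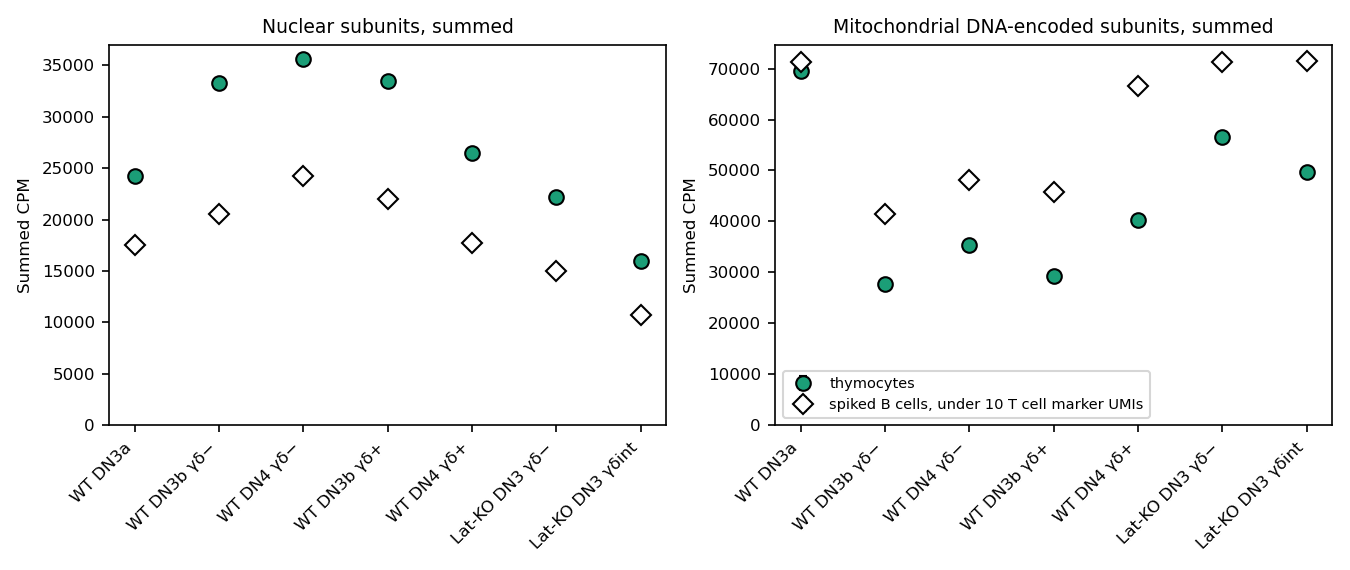
Summed CPM (y axis) of the nuclear members (left) and of the 13 subunits encoded in mitochondrial DNA (right) in each library (x axis), for thymocytes (filled circles) and spiked B cells with fewer than 10 T cell marker UMIs (open diamonds); error bars are 95% Poisson intervals. Both kinds of cell were highest for the nuclear members in DN4 γδ- and lowest in Lat-KO γδint.

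Lat-KO γδint was compared with Lat-KO γδ-, the other library of the same genotype. The median log2 ratio over members was -0.90 (all genes 0.21). Of 78 members, 47 were called lower (all genes 6.81%) and 11 higher (all genes 18.6%), or 52 and 5 under TMM scaling (all genes 11.8% and 8.64%). In the spiked B cells with few T cell UMIs the median of the same members was -0.90, and the difference gene by gene had a median of -0.049. The median was thus as low in B cells as in thymocytes. Ribosomal-protein genes also set this library apart, with 18.2% of UMIs in thymocytes and 19.8% in these B cells, against 27.7% to 33.7% and 29.8% to 35.5% in the other 6 libraries. With these and the mitochondrial genes left out of the total, the members' median was -1.11 against Lat-KO γδ- and -1.43 against DN3a. By complex the thymocyte and B medians were -1.0 and -0.85 for I, 0.54 and 0.68 for II, -1.45 and -0.99 for III, -1.50 and -1.35 for IV and -0.75 and -0.93 for V. Complex II went against the other 4 complexes in both kinds of cell.

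These ratios went with transcript length. The principal transcripts of the members had a median of 863 bases, against 2840 over all genes in the comparisons, and 57.7% of members were under 1000 bases against 7.64% of all genes. Among members of 500 to under 700 bases (24 genes) the median log2 ratio of Lat-KO γδint over Lat-KO γδ- was -1.53 in thymocytes and -1.51 in B cells. Among those of 700 to under 1000 bases (16 genes) it was -0.83 and -0.58, and among those of 1000 to under 2000 bases (24 genes) 0.42 and 0.44. Among the 5 under 500 bases it was -1.66 in thymocytes, and among the 9 of 2000 bases or more 0.15. Genes that are no members had -1.09, -0.13 and 0.39 in thymocytes from 500 to under 700, 700 to under 1000 and 1000 to under 2000 bases. Across the 78 members, which share the libraries and differ in expression, Spearman's rho between length and log2 ratio was 0.60 in thymocytes and, over 76 members, 0.64 in B cells; with the longest annotated transcript in place of the principal it was 0.41 and 0.37. Over all genes rho was -0.044 in thymocytes.

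**Figure D5:**
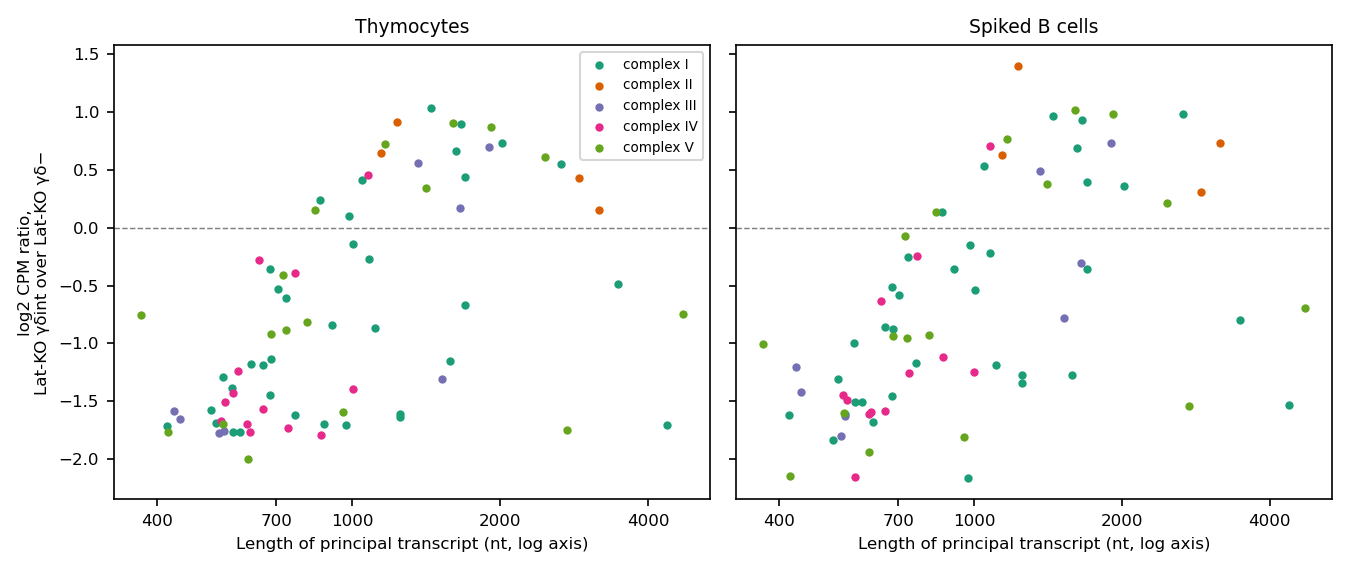
log2 CPM ratio of Lat-KO γδint over Lat-KO γδ- (y axis) against the length of the principal transcript in bases (x axis, log scale) for the members, coloured by complex, in thymocytes (left) and in spiked B cells with few T cell UMIs (right). In both panels members under 700 bases lie mostly below -1 and most of those between 1000 and 2000 bases above 0.

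The split ran through every complex with subunits of both sizes. In complex I, Ndufa9, a large accessory subunit of 1445 bases, was the highest at 1.04 (95% interval 0.98 to 1.10) (B cells 0.97), and the small Ndufa2 of 572 bases the lowest at -1.77 (95% interval -1.83 to -1.71) (B cells -1.51). In complex III, Uqcrc2 was at 0.69 (B cells 0.73) and Uqcrb, of 535 bases, at -1.77 (B cells -1.80). In complex V, Atp5f1 was at 0.90 (B cells 1.01) and Atp5mpl, of 612 bases, at -2.00 (B cells -1.94), the lowest of all members. In complex IV, Cox5b was at -1.79 (B cells -1.12), and Cox7a2l was the highest at 0.46 (B cells 0.71). The 4 subunits of complex II, all with transcripts over 1000 bases, were at 0.43 (Sdha), 0.65 (Sdhb), 0.15 (Sdhc, which turns negative under TMM scaling) and 0.91 (Sdhd). Members called against the median included Ndufa10, Ndufa9, Ndufv1, Sdhb, Sdhd, Uqcrc2, Atp5c1, Atp5f1, Atp5b and Atp5a1. Against DN3a, these were also called higher, as were Ndufs1, Ndufs3, Sdha, Uqcrc1, Uqcrfs1, Atp5d and Cox7a2l.

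Lat-KO γδ- showed a weak form of the same order over members, with rho of 0.43 between length and the log2 ratio to DN3a in thymocytes and 0.37 in B cells. With the longest annotated transcript rho was 0.27 and 0.26. Over all genes, with the principal transcript, it was 0.029 in thymocytes. In the WT libraries rho over members was 0.14 and -0.009 in DN3b and DN4 γδ-, 0.11 and -0.017 in DN3b and DN4 γδ+. Over all genes it was -0.20 and -0.22 in DN3b and DN4 γδ-, -0.23 and -0.083 in DN3b and DN4 γδ+, so that short genes tended to have higher ratios than long ones, most weakly in DN4 γδ+. In DN3b γδ- the median log2 ratio of members against other genes was 0.39 against 0.045 from 500 to under 700 bases, 0.34 against 0.042 from 700 to under 1000 and 0.50 against 0.13 from 1000 to under 2000 bases. The members called lower in Lat-KO γδ- were Ndufa1 (-0.79, B cells -0.72), Ndufa5 (-0.62, B cells -0.49), Cox6c (-0.64, B cells -0.70), Cox7c (-0.75, B cells -0.80) and Atp5md (-0.79, B cells -1.45). With B ratios taken off, 59 of 77 members lay above 0.

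The subunits encoded in mitochondrial DNA were in sum below DN3a in thymocytes of all other libraries, and so went against the nuclear members in the WT groups but not in the Lat-KO ones. The 13 genes summed to 69589.7 CPM in DN3a, 27685 and 35444 in DN3b and DN4 γδ-, 29228 and 40259 in DN3b and DN4 γδ+, 56526 in Lat-KO γδ- and 49723 in Lat-KO γδint. DN3a was thus the highest. Their median log2 ratio was -1.26 and -0.82 in DN3b and DN4 γδ- and -0.97 in DN3b γδ+, with 12, 9 and 11 of 13 called lower (all genes 26.8%, 30.6% and 24.5%) and none higher. mt-Co1, the catalytic subunit of complex IV, was at 10685 CPM in DN3a and 3589.9 in DN3b γδ-, while mt-Nd1 of complex I was at 2228 and 2362. In spiked B cells with few T cell UMIs their medians were -0.79, -0.54 and -0.53 in the same groups, and -0.12 in DN4 γδ+, where the thymocyte median was -0.78. In sum, the B cells of the Lat-KO libraries were level with those of DN3a, at 71342 CPM in γδ- and 71484 in γδint against 71229. Thymocytes summed to 56526 and 49723 CPM there, against 69589.7 in DN3a. Gene by gene, which is another measure, the thymocyte medians of the Lat-KO libraries were -0.42 and -0.54. Barcodes had been limited to 15% mitochondrial UMIs.

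Cycs and Cyc1 encode cytochrome c, the carrier between complexes III and IV, and cytochrome c1, the part of complex III that hands electrons to it. Their names are not in the rule, and their ratios had the sign of the members' medians in DN3b γδ-, DN4 γδ- and DN3b γδ+. In DN4 γδ+, where the members' median was 0.11, Cycs had 0.19 and Cyc1 -0.12. Cycs was at 173 CPM in DN3a, 424 and 422 in DN3b and DN4 γδ-, 554 and 198 in DN3b and DN4 γδ+, 148 in Lat-KO γδ- and 125 in Lat-KO γδint. Cyc1 was at 128 CPM in DN3a, 257 and 238 in DN3b and DN4 γδ-, 235 and 118 in DN3b and DN4 γδ+, 146 in Lat-KO γδ- and 250.3 in Lat-KO γδint. Both were called higher in DN3b γδ-, DN4 γδ- and DN3b γδ+, with log2 ratios of 1.29, 1.29 and 1.68 for Cycs and 1.01, 0.90 and 0.88 for Cyc1, where their B cell median was 0.82, 0.99 and 1.14. Of 47 listed assembly factors, which build the complexes, 43 entered the comparisons. In DN3b γδ- 9 of them were called higher and 6 lower, where 21.1% and 26.8% of all genes were, so that the higher count was near the background. Their median was 0.21 and 0.17 in DN3b and DN4 γδ- and 0.25 in DN3b γδ+, under that of the subunits. Of 14 citric acid cycle genes, 4, 4 and 3 were called higher in the 3 groups (all genes 21.1%, 16.9% and 20.8%) and 0, 1 and 1 lower (all genes 26.8%, 30.6% and 24.5%), with medians of 0.43 and 0.29 in DN3b and DN4 γδ- and 0.33 in DN3b γδ+. Of 11 genes for mitochondrial transcription and its regulators, 2, 0 and 1 were called higher and 1, 1 and 1 lower, against the same shares of all genes.

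Other gene sets of growing cells had medians near or above that of the members, and the difference between sets was not tested. Mitochondrial ribosomal proteins (78 genes) had 0.60 and 0.57 in DN3b and DN4 γδ- and 0.53 in DN3b γδ+, and proteasome subunits (38 genes) 0.50 and 0.61 in DN3b and DN4 γδ- and 0.73 in DN3b γδ+. Glycolysis genes (14) had 1.19 and 0.82 in DN3b and DN4 γδ- and 0.94 in DN3b γδ+, with B cell medians of 0.63, 0.39 and 0.45, so that they lay further above both DN3a and their B cell values than the nuclear subunits did. In DN4 γδ+ the medians were -0.0094 for mitochondrial ribosomal proteins, 0.18 for the proteasome and 0.40 for glycolysis. In Lat-KO γδint over Lat-KO γδ- they were 0.32, 0.62 and 0.71, all above the members' -0.90. The members' median in spiked B cells with few T cell UMIs was -0.90 in that comparison too, and their ratios went with transcript length. The B cell medians and transcript lengths of the other sets are not given for it, so no difference particular to the members can be read from these values.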

How the data were processed

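Gene expression was measured by 10x 3' v3 single-cell RNA-seq in 7 libraries, 1 per group. The deposited files are raw UMI counts for each gene and barcode. The authors' counter was Cell Ranger (4.0.0 per the file headers, 5.0.1 in the submitters' processing notes) run on mm10 with the edited Trdc reporter added as a feature, and the notes name R 3.6.3 and Seurat 3.1.5 for later steps. Cell Ranger counts only reads that map to 1 place, so counts of members that have processed pseudogenes are uncertain.

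Groups came from the sample labels. Barcodes had to show 200 genes or more, with mitochondrial UMIs at 15% or less. UMIs were summed per gene over thymocyte barcodes (at most 1 UMI of Cd79a, Cd79b and Ms4a1) and over B barcodes (at least 5) and divided by their total to give CPM. Genes with a mean CPM of at least 10 over the 7 libraries were compared. Intervals (95%) are exact Poisson for CPM and conditional binomial for ratios. They cover counting error only. A difference of at least 1.5-fold was called. No test was run, since each group is 1 library. Positions and transcript lengths (the longest transcript with the APPRIS principal tag) came from GENCODE vM21, matched by Ensembl ID; GRCm38 is the mm10 assembly. Promoters came from RefSeq, GRCm38.p6.

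Doublets were kept, as scrublet (scanpy 1.11.5) at its own threshold marked 0% to 15.0% of barcodes per library and under 0.5% in 5 of the 7; leaving out the 8% with the highest scores was an alternative. Thinning to 4000 UMIs was random with a fixed seed. Code ran in Python 3.11.15 (numpy 2.4.6, pandas 2.3.3, scipy 1.17.1) and edgeR 4.0.16 in R 4.3.3 for TMM factors, and was checked on simulated counts. Named members were, per complex, the highest and lowest in 4 comparisons, all of complex II, the isoform sets, the core subunits, members called against the median, and the genes for cytochromes c and c1 and in mitochondrial DNA, of which the text gives a selection made after the values were seen; Ndufb8, Ndufa1, Ndufa5, Uqcr10, Cox6c, Cox7c and, for its motifs, Atp5j were added then. Some named items are not reported here. Members, gene lists and rules were chosen with earlier results of these data known.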

Additional observations from a re-analysis of the deposited data

Results flagged for a closer look

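From DN3b to DN4 the median log2 ratio of the members was 0.044 on the γδ- path and -0.34 on the γδ+ path, that is of opposite sign. The signs were alike with low-cycle barcodes alone (-0.024 and -0.36) and with the ratios of B barcodes with few T cell UMIs taken off (-0.16 and -0.0090), and with those of the rule's B barcodes taken off both were positive (0.070 and 0.22). The difference was not tested, since each stage of each path is 1 library.

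Ndufb1-ps matched the name pattern but was left out of the members because its name ends in -ps. Whether it is a pseudogene or codes for a subunit was not examined. It was counted well above the limit that a count of 0 allows in all 7 libraries. Its level was 429 CPM in DN3a, 275 and 529 in DN3b and DN4 γδ-, 356 and 378 in DN3b and DN4 γδ+, 239 in Lat-KO γδ- and 103 in Lat-KO γδint. DN4 γδ- was the highest and Lat-KO γδint the lowest, as for the members in sum. In DN3b γδ-, DN3b γδ+ and DN4 γδ+ it lay below DN3a, where the members in sum lay above it.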

How the results depend on the processing

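No paired analysis was possible because each group is 1 library and the labels give no replicate numbers, and for the same reason no library could be left out in turn. A median was taken as moved where it left the exact binomial interval of the median over members. Ratios are to DN3a where no other library is named. The causes of these changes were not tested. With TMM scaling, which shifts all genes by 0.36, 0.36, 0.32, 0.02, -0.17 and -0.42 log2 against DN3a in the order DN3b γδ-, DN4 γδ-, DN3b γδ+, DN4 γδ+, Lat-KO γδ- and Lat-KO γδint, the members' median became 0.77 and 0.85 in DN3b and DN4 γδ-, 0.79 in DN3b γδ+, -0.27 in Lat-KO γδ-, -0.65 in DN4 γδ+ over DN3b γδ+. With mitochondrial and ribosomal-protein genes left out of the total, the members' median became 0.29 in DN3b γδ+, -0.00017 in DN4 γδ+ (reversed), -0.24 in Lat-KO γδ-, -0.28 in DN4 γδ+ over DN3b γδ+. With low-cycle barcodes only, the members' median became 0.28 and 0.26 in DN3b and DN4 γδ-, 0.27 in DN3b γδ+, -0.069 in DN4 γδ+ (reversed), -0.024 in DN4 γδ- over DN3b γδ- (reversed). With equal weight of barcodes, the members' median became -0.45 in DN4 γδ+ over DN3b γδ+. With the ratio in the rule's B barcodes taken off, the members' median became -0.27 in DN3b γδ- (reversed), -0.24 in DN3b γδ+ (reversed), -0.20 in DN4 γδ- (reversed), -0.032 in DN4 γδ+ (reversed), -0.042 in Lat-KO γδint, 0.074 in Lat-KO γδint over Lat-KO γδ- (reversed), 0.029 in DN3b γδ+ over DN3b γδ- (reversed), 0.22 in DN4 γδ+ over DN3b γδ+ (reversed). With the ratio in B barcodes with few T cell UMIs taken off, an alternative added after seeing the data, the members' median became 0.20 and 0.046 in DN3b and DN4 γδ-, 0.042 in DN3b γδ+, 0.14 in Lat-KO γδ- (reversed), 0.085 in Lat-KO γδint (reversed), -0.049 in Lat-KO γδint over Lat-KO γδ-, -0.16 in DN4 γδ- over DN3b γδ- (reversed), -0.0090 in DN4 γδ+ over DN3b γδ+. The median in B barcodes, with those of fewer than 10 T cell UMIs only, became 0.28 and 0.49 in DN3b and DN4 γδ-, 0.34 and 0.00056 in DN3b and DN4 γδ+, -0.23 in Lat-KO γδ- (reversed), -1.27 in Lat-KO γδint, -0.90 in Lat-KO γδint over Lat-KO γδ-, 0.088 in DN3b γδ+ over DN3b γδ- (reversed), 0.27 in DN4 γδ- over DN3b γδ-, -0.33 in DN4 γδ+ over DN3b γδ+. Shares of all genes called at the same setting stand in brackets. At a lower limit on the fold, halfway between 1 and 1.5, the members called higher numbered, by library, DN3b γδ+ 49 (31%), DN3b γδ- 47 (31.1%), DN4 γδ+ 12 (25.2%), DN4 γδ- 62 (26.5%), Lat-KO γδ- 10 (38.9%), Lat-KO γδint over Lat-KO γδ- 18 (38.9%), and those called lower DN3b γδ- 3 (37.4%), DN4 γδ+ 6 (26%), Lat-KO γδ- 16 (7.09%). At 2-fold, the members called higher numbered, by library, DN3b γδ+ 2 (10.1%), DN3b γδ- 10 (10.1%), DN4 γδ+ 0 (7.97%), DN4 γδ- 8 (7.59%), Lat-KO γδ- 0 (2.76%), Lat-KO γδint 6 (13.9%), Lat-KO γδint over Lat-KO γδ- 1 (5.00%), and those called lower DN4 γδ- 1 (17.2%), Lat-KO γδ- 0 (0.739%). With TMM scaling at 1.5-fold, the members called higher numbered, by library, DN3b γδ+ 53 (34.2%), DN3b γδ- 61 (36.1%), DN4 γδ- 68 (30.7%), Lat-KO γδint 6 (13.8%), Lat-KO γδint over Lat-KO γδ- 5 (8.64%), and those called lower DN4 γδ- 1 (18.8%), Lat-KO γδ- 10 (4.62%). Under no CPM filter, a limit of 50 CPM, all barcodes as deposited, a minimum of 10 T cell marker UMIs and without doublet candidates, all 10 medians kept their sign and stayed within that interval, and so did the medians of complexes I and IV with Ndufa4 in complex I.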
